A study of Mus musculus with 13 samples.

Results

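Catalytically dead TET1 was compared with a loss of TET1 in male germ cell precursors (primordial germ cells) of mouse embryos at E14.5. The members are the 3 libraries labelled HxD and the 3 labelled KO, chosen by the genotype in their labels and column names, and they are 6 of the 13 samples in the series. KO is a Tet1 knockout whose deleted region the labels leave unnamed. HxD is known as an allele that makes a TET1 protein without catalytic activity. Both groups, and the wild type (WT) and a further allele (V, known as one whose enzyme stalls at 5-hydroxymethylcytosine) that serve here for reference, carried an Oct4-GFP reporter by which germ cells were sorted. RNA came from 5000 sorted cells per library, was captured by its poly(A) tail, and was sequenced after NEB Ultra II library preparation. The labels do not say whether replicates came from separate embryos or pools, whether the alleles were homozygous, or in which other cells they were present. The p-values therefore speak only for variation among these libraries, part or all of which may be technical.

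TET1 oxidises 5-methylcytosine, a step towards removal of the methyl group, and germ cells of this stage have largely lost DNA methylation. The protein also has partners that do not depend on its chemistry, among them the SIN3A-HDAC repressor complex, the glycosyltransferase OGT and Polycomb repressive complex 2. A catalytically dead protein can in principle keep those contacts while a knockout cannot, and the comparison asks what TET1 protein without catalysis still does to the transcriptome.

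The 6 libraries held 15037595 to 29641963 counts, with HxD 3 the shallowest and HxD 1 the deepest. Germ cell markers summed to 4144 to 4942 CPM (counts scaled to the same total for every library, with TMM factors) in HxD and 4167 to 4533 CPM in KO. Macrophage markers summed to at most 5.35 CPM in HxD and 3.76 CPM in KO, and Sertoli cell markers to 187 to 201 CPM in HxD and 175 to 236 CPM in KO. Dmrt1, which germ cells also express, made up most of the Sertoli sums, with 134 to 177 CPM in HxD and 128 to 146 CPM in KO. Amh measured 1.54, 25.7 and 19.4 CPM in HxD 1, 2 and 3 and 4.06, 30.9 and 6.07 CPM in KO 1, 2 and 3. Pou5f1, the gene whose promoter names the reporter, measured 371, 526 and 494 CPM in HxD 1, 2 and 3 and 398, 325 and 348 CPM in KO 1, 2 and 3, with overlapping groups. Spearman correlations of counts were 0.934 to 0.955 between an HxD and a KO library, 0.930 to 0.938 among HxD libraries and 0.949 to 0.960 among KO libraries. The correlations between genotypes thus started within the range found among HxD libraries and ended within the range found among KO libraries. Among genes averaging at least 8 CPM, 0 to 36 were at 0 in an HxD or KO library, and 104 in WT 3, which serves only for reference. Without WT 3 edgeR again called 1 gene between HxD and KO. In bulk RNA such as this, fewer cells of a type and less RNA per cell cannot be told apart.

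Tet1 itself was the gene that separated the genotypes. It measured 607, 735 and 536 CPM in HxD 1, 2 and 3 and 213, 201 and 225 CPM in KO 1, 2 and 3. Every HxD library lay above every KO library, and the WT mean was 608 CPM ± 27.0 (SD, n = 3), within the range of HxD. The log2 fold change from KO to HxD was 1.56 (SE 0.18, 95% interval 1.20 to 1.91, adjusted p = 7.87e-06 by edgeR's quasi-likelihood test), a 2.94-fold ratio of means. Reads that remained in KO were counted over the whole gene, and which exons they came from is not recorded in gene counts. Tet1 lies on chromosome 10 at 62804570 to 62908996, minus strand (GRCm38), and 2 small annotated genes on the same strand, Gm48353 and Gm26479, overlap it, so reads from them and from Tet1 may be mixed.

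No other gene passed. Of 14702 genes tested, edgeR called 1, or 0.0068%, at an adjusted p below 0.05, and the smallest adjusted p after Tet1 was 0.173. Genes with an unadjusted p under 0.05 numbered 686, or 4.67%, against the 735 that a threshold of this size gives when nothing differs. The p-values were not spread evenly, since the next bin, from 0.05 to 0.1, held 970 genes. KO against WT had 1220 such genes (8.3%) and 32 called (0.218%), and HxD against WT had 1211 (8.24%) and 5 called (0.034%). Those comparisons share libraries with the one described here, and their counts are given only as a scale. DESeq2 called 87 genes (0.592%), 33 higher and 54 lower in HxD, and 62 of the 87 averaged under 8 CPM in the 6 libraries.

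**Figure D1:**
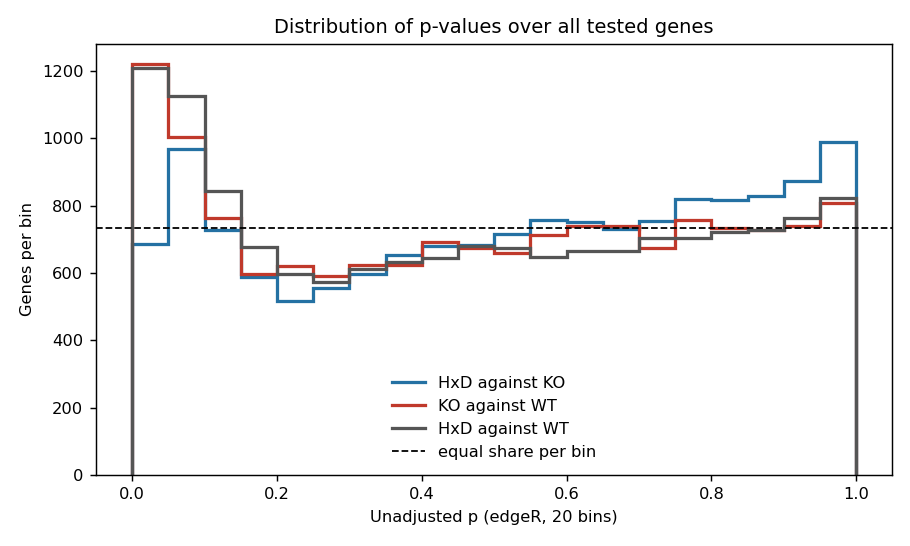
Number of tested genes (y axis) per bin of unadjusted edgeR p-value (x axis, 20 bins of equal width), for HxD against KO, KO against WT and HxD against WT. The lowest bin holds 686 genes for HxD against KO, below the dashed line of an equal share, and 1220 and 1211 genes for the comparisons with WT.

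The direction of small differences was also near balance. A positive fold change, higher in HxD, was found in 6991 genes (47.6%), and the median over all tested genes was -0.016 on the log2 scale. HxD libraries all lay above KO libraries in 542 genes (3.69%) and all below in 829 (5.64%), so that the groups did not overlap in 9.33% of genes. These shares are the background against which counts of members are read.

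How far the genotypes could have differed unseen depends on expression. The 95% interval of the fold change lay wholly within 2-fold in either direction for 5605 genes, 38.1% of those tested. All of these averaged at least 8 CPM, where they made up 60.7% of 9230 genes. Above a mean of 90.4 CPM the share was 98.6%, between 32 and 90.4 CPM it was 75.5%, and from 8 to 32 CPM it was 8.12%. A bound of 1.5-fold held for 2287 genes (15.6%). For the remaining genes, Tet1 among them, the interval reached beyond 2-fold in at least 1 direction. The common biological coefficient of variation was 0.932, and the median SE at 8 CPM or more was 0.30 on the log2 scale.

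**Figure D2:**
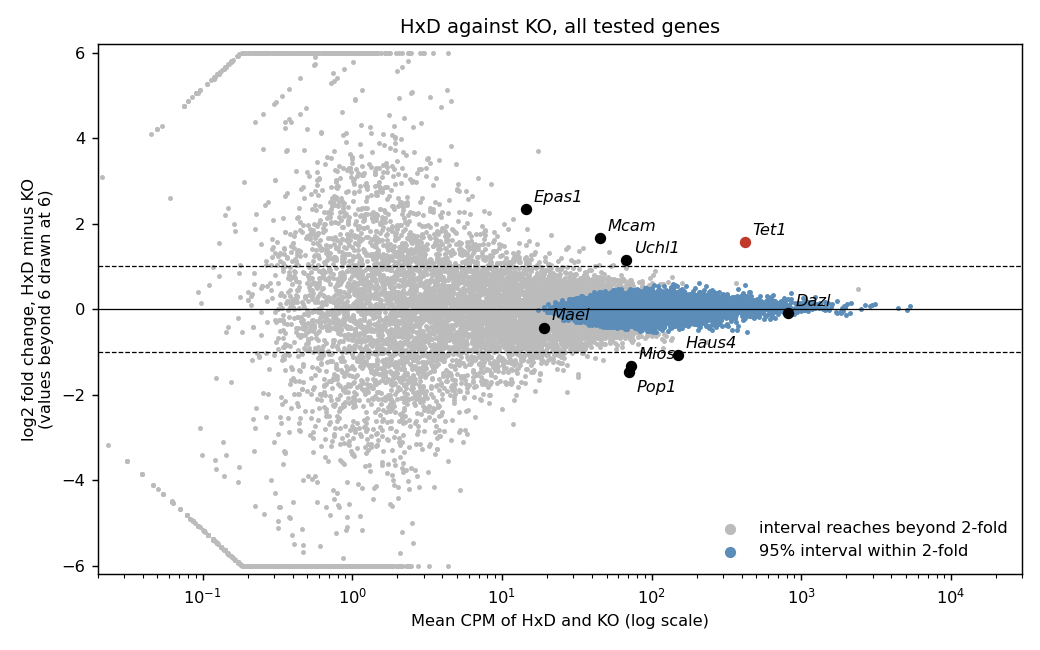
log2 fold change from KO to HxD (y axis, values beyond 6 drawn at 6) against mean CPM of both genotypes (x axis, log scale) for the tested genes, with genes whose 95% interval lies within 2-fold in blue and 2-fold marked by dashed lines. Tet1 (red) stands at 1.56, and the interval-bounded genes all lie at 8 CPM or more.

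Of the genes after Tet1, 6 were called in 5 to 9 of 21 alternative fits but not in the edgeR fit reported here: Mcam, Epas1 and Uchl1 with more transcript in HxD, and Mios, Haus4 and Pop1 with less. Other genes were called in at most 2 of the alternatives, most of them by DESeq2 alone. They were picked out by their behaviour in these data, so their values describe them and are no independent evidence. Mcam encodes a cell adhesion molecule (CD146). It measured 43.7, 107 and 55.4 CPM in HxD 1, 2 and 3 and 15.1, 30.8 and 19.13 CPM in KO 1, 2 and 3. The groups did not overlap, HxD 2 was the highest library, and the WT mean of 48.5 CPM lay within the HxD range. The log2 fold change was 1.66 (SE 0.33, edgeR adjusted p = 0.173) and was 1.19 without HxD 2. Epas1 encodes HIF-2alpha, a transcription factor of the hypoxia response. It measured 21.8, 18.9 and 31.9 CPM in HxD and 1.41, 6.16 and 6.72 CPM in KO, in replicate order. All HxD libraries exceeded all KO libraries, and WT was higher than either at a mean of 43.7 CPM ± 7.33 (SD, n = 3). The log2 fold change was 2.34 (SE 0.49, edgeR adjusted p = 0.212). Against WT, edgeR called Epas1 in KO (log2 fold change -3.20, adjusted p = 0.0018) and not in HxD (-0.85, adjusted p = 0.617), and the direct comparison of the mutants, given above, did not pass.

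Uchl1, a ubiquitin hydrolase of neurons and spermatogonia, measured 93.2, 90.4 and 97.2 CPM in HxD and 52.2, 47.0 and 27.5 CPM in KO. The HxD libraries were close together and all above KO, and WT was higher again with a mean of 159 CPM ± 32.9 (SD, n = 3). The log2 fold change was 1.15 (SE 0.27, edgeR adjusted p = 0.489). Uchl1 was called in KO against WT (-1.92, edgeR adjusted p = 0.000817) and not in HxD against WT (-0.77, edgeR adjusted p = 0.442). Mcam and Uchl1 each have an annotated antisense gene, Gm10687 and Uchl1os, and Epas1 overlaps AC096777.1 on its own strand, so reads of these pairs may be mixed.

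Mios encodes a subunit of GATOR2, which links amino acid supply to mTORC1. It measured 52.7, 47.8 and 23.9 CPM in HxD and 98.5, 101 and 115 CPM in KO, with a WT mean of 55.6 CPM ± 18.6 (SD, n = 3). KO stood above HxD without overlap, and the WT mean lay just above the highest HxD library. The log2 fold change from KO to HxD was -1.34 (SE 0.29, edgeR adjusted p = 0.212). Haus4, a subunit of the augmin complex that builds spindle microtubules, measured 130, 99.9 and 59.8 CPM in HxD and 206, 204 and 200 CPM in KO. The KO libraries were nearly equal and all above HxD. The V mean was also 204 CPM, and the WT mean was 123 CPM ± 41.6 (SD, n = 3). Its log2 fold change was -1.07 (SE 0.23, edgeR adjusted p = 0.224).

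Pop1, a protein subunit of the RNA-processing ribonucleases P and MRP, measured 60.9, 35.2 and 16.2 CPM in HxD and 79.8, 86.2 and 147 CPM in KO. The groups did not overlap, and the log2 fold change was -1.48 (SE 0.36, edgeR adjusted p = 0.531). The WT mean was 92.4 CPM ± 35.2 (SD, n = 3) and the V mean was 84.7 CPM. For Mios, Haus4 and Pop1 the lowest of the HxD libraries was HxD 3, the shallowest, and without it the log2 fold changes were -1.06, -0.82 and -1.11. Whether depth had a part in this was not tested. The 6 genes were called by DESeq2, except Pop1, and by edgeR without the filter on low counts, when 8 genes were called of 19874 tested (these 6, Tet1 and Osgep). Without HxD 1 edgeR called 14 genes, among them Tet1, Mcam, Epas1, Mios, Haus4 and Pop1. Without V 1 or V 2, libraries that enter through the shared estimate of spread and through the filter on low counts, it called 7, which were Tet1 and the 6. Without WT 1 or WT 2 it called 5 (Tet1, Mcam, Mios, Haus4 and Pop1), and without KO 2 it called 4 (Tet1, Mcam, Pop1 and Slc25a31). Tet1 was the only call by edgeR on the HxD and KO libraries alone, where the smallest adjusted p after it was 0.740. The same held for limma-voom (0.378) and for edgeR with the filter at 8 CPM (0.311). Other fits with Tet1 as the only call, all by edgeR, came nearer to the threshold. Their smallest adjusted p after Tet1 ran from 0.0512 without HxD 3 to 0.279 with 1 surrogate variable.

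**Figure D3:**
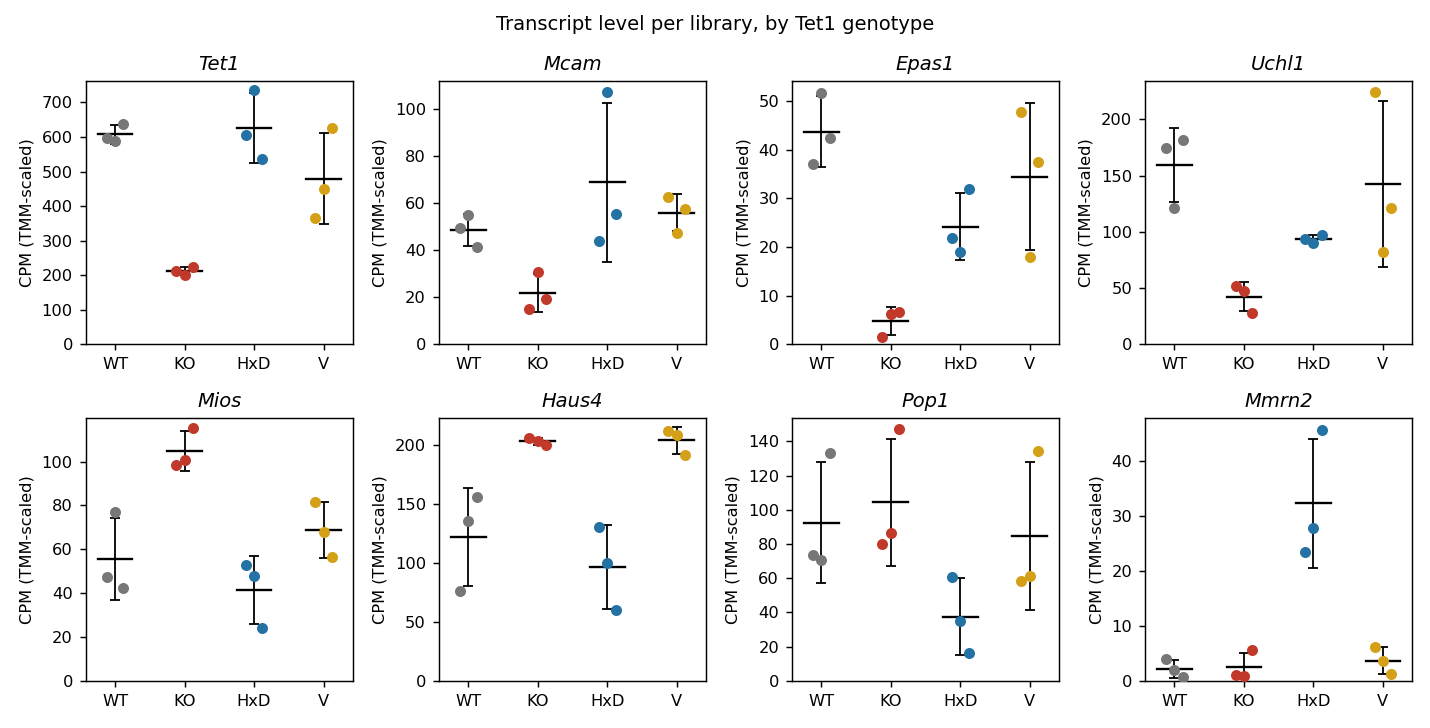
CPM per library (dots) with mean and SD (bar and whiskers) for Tet1, the 6 genes called in 5 to 9 of 21 alternative fits, and Mmrn2, in WT, KO, HxD and V (3 libraries each). HxD and KO do not overlap in any panel, and Tet1 is the gene whose difference passed the edgeR test.

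Mcam and Epas1 are also known from blood vessel cells, as is Mmrn2, an endothelial matrix protein. Mmrn2 measured 23.5, 27.8 and 45.6 CPM in HxD, 1.02, 0.940 and 5.54 CPM in KO, and a mean of 2.24 CPM in WT and 3.68 CPM in V. HxD was thus the high genotype, with a log2 fold change of 3.69 against KO (SE 0.97, edgeR adjusted p = 0.644). Markers of endothelial cells summed to 179 to 295 CPM in HxD and 210 to 311 CPM in KO, and the groups overlapped. From 5 to 7 of these markers were at 0 in each HxD library and 4 to 7 in each KO library. Pecam1, which germ cells of this age also express, made up most of the sums. Tie1 and Emcn were at 0 in all 6 libraries, and Flt1 was at 0 in all 3 HxD libraries. Cdh5 was at most 2.10 CPM in HxD and 2.21 CPM in KO. Other markers of the list were detected. Cldn5 measured 26.5, 13.1 and 12.9 CPM in HxD and 2.08, 17.7 and 16.8 CPM in KO. Egfl7 measured 6.3, 6.2 and 8.3 CPM in HxD and 4.4, 17.7 and 9.7 CPM in KO, and for both the groups overlapped.

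These 6 and the following 14 genes had the smallest p in each direction, 10 each, among genes other than predicted models that averaged at least 8 CPM and whose groups did not overlap, and the 14 were also not called by edgeR. With more transcript in HxD these were Mmrn2, Cox6b2 (a testis form of a cytochrome oxidase subunit, log2 fold change 1.44), Pkd2 (a calcium-permeable channel, 1.33), the pseudogene Zfp862-ps (1.03), Ltn1 (a ubiquitin ligase of stalled ribosomes, 0.80), Atl3 (0.71) and Ktn1 (0.55), the last pair being proteins of the endoplasmic reticulum. Cox6b2 measured 37.6, 59.7 and 56.2 CPM in HxD and 17.5, 14.9 and 24.3 CPM in KO. With less transcript in HxD these were Tmem132a (-1.51), Pdlim7 (an actin-associated protein, -1.43), Acvr1b (a receptor for activin and Nodal, -1.19), Hip1 (an endocytic adaptor, -1.14), Ptprs (-0.91) and Ptprf (-0.74), both receptor tyrosine phosphatases, and Plcg2 (a phospholipase C, -0.78). Acvr1b measured 32.6, 24.9 and 29.0 CPM in HxD and 75.1, 53.2 and 68.6 CPM in KO. The edgeR adjusted p of these genes ran from 0.489 for Tmem132a to 0.884 for Ktn1 and Atl3. All but Ltn1 were called by DESeq2.

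The promoters of Uchl1, a gene with more transcript in HxD than in KO, and of Mios, one with less, are printed with those of Mael and Dazl, germ cell genes that were low in both mutants. CG pairs, the sites on which TET1 acts when methylated, are in capitals. The sequences are from RefSeq (GRCm38.p6), 5′ to 3′ on the strand of the gene, and end just before the start of transcription in the annotation.
Uchl1: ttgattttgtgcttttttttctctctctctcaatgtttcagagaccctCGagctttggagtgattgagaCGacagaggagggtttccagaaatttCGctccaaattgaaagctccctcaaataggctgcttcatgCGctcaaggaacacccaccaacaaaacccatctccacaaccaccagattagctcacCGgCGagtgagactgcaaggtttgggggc
Mios: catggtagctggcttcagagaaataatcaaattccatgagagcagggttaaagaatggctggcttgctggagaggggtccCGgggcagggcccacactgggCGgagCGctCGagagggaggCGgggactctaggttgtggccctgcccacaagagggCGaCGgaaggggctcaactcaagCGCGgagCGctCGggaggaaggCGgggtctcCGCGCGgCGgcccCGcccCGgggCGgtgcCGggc
Mael: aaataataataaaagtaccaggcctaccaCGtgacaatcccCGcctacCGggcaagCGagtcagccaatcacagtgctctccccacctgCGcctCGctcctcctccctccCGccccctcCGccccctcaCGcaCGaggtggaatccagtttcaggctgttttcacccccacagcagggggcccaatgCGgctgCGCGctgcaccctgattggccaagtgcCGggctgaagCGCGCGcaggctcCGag
Dazl: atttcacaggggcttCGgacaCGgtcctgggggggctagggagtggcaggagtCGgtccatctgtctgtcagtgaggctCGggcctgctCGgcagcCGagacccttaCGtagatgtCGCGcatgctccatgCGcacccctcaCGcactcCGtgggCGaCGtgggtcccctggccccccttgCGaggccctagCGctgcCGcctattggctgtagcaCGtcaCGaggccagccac

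Uchl1 is at chr5:66675871-66676090 on the plus strand, Mios at chr6:8208977-8209221 on the plus strand, Mael at chr1:166238748-166238994 on the minus strand and Dazl at chr17:50293637-50293870 on the minus strand. The stretch before Uchl1 holds 6 CG pairs in 220 bases, and 46.1% of RefSeq promoter windows cut to that length hold as many. That before Mios holds 20 in 245 bases (17% of windows), that before Mael 18 in 247 bases (21.0%) and that before Dazl 19 in 234 bases (16.5%). The E-box CACGTG, which reads the same on both strands, occurs 1 time before Mael, where 5.96% of windows of its length hold it, and not in the other windows. Methylation of these stretches was not measured in the RNA libraries. RefSeq entries were matched for 4 of the 6 genes looked up.

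The named genes called against WT in both mutants overlapped between HxD and KO. They were chosen by their difference from WT in these same HxD and KO libraries. Their likeness between the mutants is therefore partly set by the choice and is no independent evidence. Mael, a protein of the piRNA pathway that silences transposons, measured 20.2, 19.8 and 8.92 CPM in HxD and 9.54, 23.9 and 32.9 CPM in KO. The groups overlapped, and both lay below the WT mean of 121 CPM ± 45.2 (SD, n = 3). The log2 fold change from KO to HxD was -0.44 with an interval of -1.20 to 0.33, so a 2-fold lower level in HxD is not outside it. Leaving out 1 library gave -0.80 without KO 1, -0.14 without HxD 3 and -0.034 without KO 3. Dazl, an RNA-binding protein of germ cell identity, measured 944, 858 and 576 CPM in HxD and 757, 1071 and 720 CPM in KO. These values overlapped as well, and the log2 fold change of -0.099 had an interval of -0.48 to 0.29, within 2-fold. Against WT, at a mean of 1754 CPM, Dazl was called in KO (-1.05, edgeR adjusted p = 0.00943) and in HxD (-1.15, edgeR adjusted p = 0.00935), and both of those tests use the same WT libraries.

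Pmaip1, the cell death gene NOXA, measured 85.0, 104 and 79.5 CPM in HxD and 88.6, 113 and 79.1 CPM in KO, against a WT mean of 194 CPM. The libraries interleaved, and the log2 fold change was -0.066 with an interval of -0.48 to 0.35. Mkx, a homeobox gene, measured 64.0, 103 and 90.1 CPM in HxD and 92.7, 69.6 and 76.8 CPM in KO, above the WT mean of 26.2 CPM. Here too the groups overlapped, and the log2 fold change was 0.10 with an interval of -0.55 to 0.76. Without HxD 3 the signs of Dazl and Pmaip1 turned, to 0.089 and 0.015, and without KO 2 to 0.10 and 0.092, while Mkx became -0.050 without HxD 2. No direction is therefore drawn from these 3.

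Sgk3, Bnc2 and Lrrc34 were among the 8 genes of smallest p, leaving out predicted models, of the 32 called in KO against WT. They were not called in HxD against WT, and the tests that follow compare the mutants with each other. In HxD against WT the edgeR adjusted p was 0.0836 for Sgk3, 0.353 for Bnc2 and 0.0921 for Lrrc34. These genes were chosen by a small p in KO against WT, which selects KO values far from WT. An HxD level nearer to WT is therefore no independent evidence. Sgk3, a kinase related to AKT, measured 29.7, 33.8 and 35.7 CPM in HxD and 24.0, 22.04 and 27.3 CPM in KO, beside a WT mean of 86.1 CPM. HxD was above KO in every library, and the log2 fold change was 0.43 (edgeR adjusted p = 0.910), with an interval of -0.14 to 1.01. Bnc2, a zinc finger gene, measured 51.4, 52.3 and 49.7 CPM in HxD and 19.9, 38.5 and 23.2 CPM in KO, which gave 0.91 on the log2 scale, an interval of 0.14 to 1.68 and an edgeR adjusted p of 0.884. The groups were apart, and the WT mean was 123 CPM ± 66.1 (SD, n = 3). Lrrc34 measured 18.9, 41.3 and 40.7 CPM in HxD and 73.1, 30.7 and 40.6 CPM in KO, with overlap and a log2 fold change of -0.52 (interval -1.40 to 0.36), which was -0.085 without KO 1 and -0.23 without HxD 1. None of the 3 was shown to differ between the mutants.

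**Figure D4:**
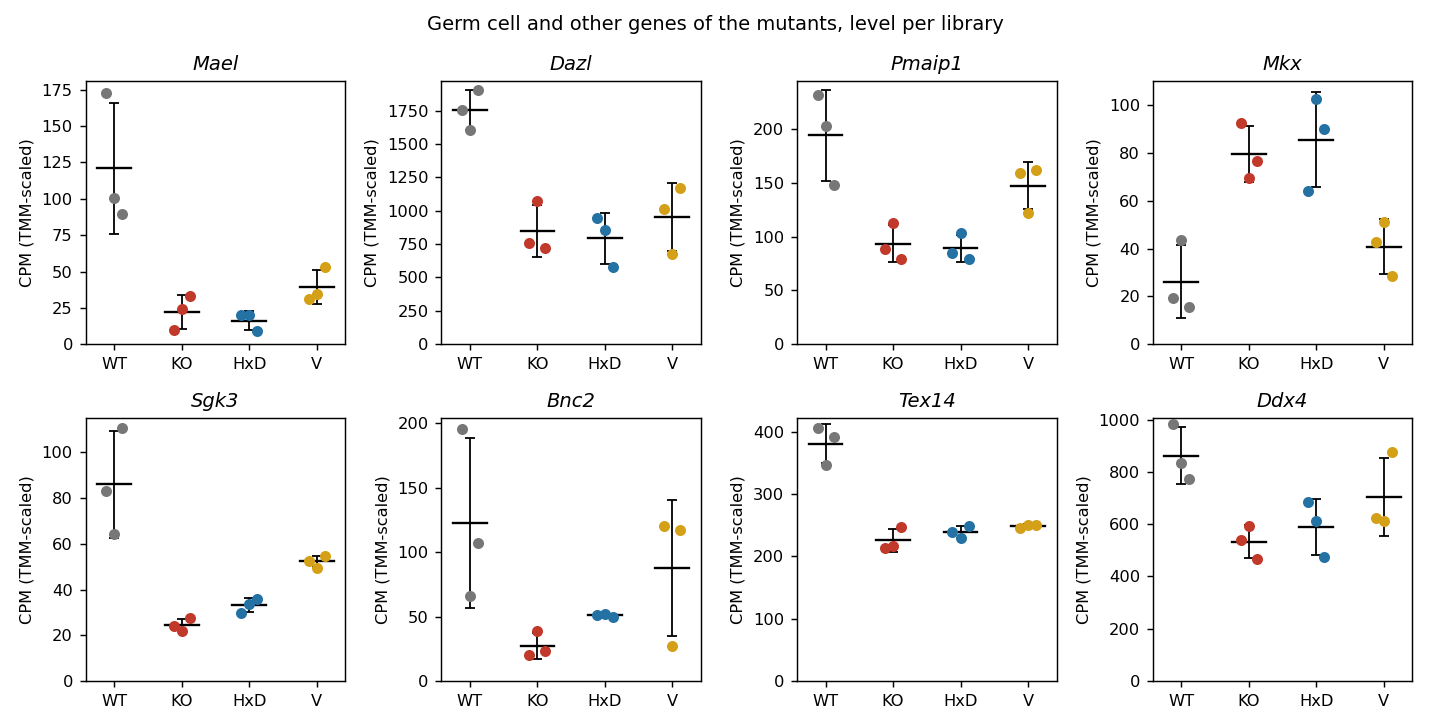
CPM per library (dots) with mean and SD (bar and whiskers) for Mael, Dazl, Pmaip1, Mkx, Sgk3, Bnc2, Tex14 and Ddx4 in WT, KO, HxD and V (3 libraries each). The HxD and KO dots overlap in all panels but Sgk3 and Bnc2, where HxD lies above KO.

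Germ cell genes were described further by lists drawn from general knowledge. Of 47 tested germ cell genes whose promoters methylation is known to control, edgeR called 0 between HxD and KO, 3 had an unadjusted p under 0.05 with more transcript in HxD and 1 with less, against 1.88% and 2.79% of all genes. Their median log2 fold change from KO to HxD was -0.028, beside -0.016 over all genes, while the medians against WT were -0.76 in KO and -0.56 in HxD. Without HxD 1 the median from KO to HxD was -0.21. The interval lay within 2-fold for 26 of the 47. Tex14, needed for the bridges between germ cells, measured 239, 229 and 249 CPM in HxD and 214, 216 and 247 CPM in KO, and Ddx4, the RNA helicase Vasa, measured 683, 613 and 473 CPM in HxD and 539, 591 and 465 CPM in KO. Both overlapped and were bounded, with intervals of -0.23 to 0.40 and -0.19 to 0.49 on the log2 scale. Tex14 had a WT mean of 381 CPM. Against WT, edgeR called it in KO (-0.76, adjusted p = 0.0254) and not in HxD (-0.67, adjusted p = 0.145). Slc25a31, the ADP/ATP carrier of male germ cells, measured 123, 42.1 and 49.2 CPM in HxD and 15.9, 68.6 and 22.03 CPM in KO, with a log2 fold change of 1.01 (edgeR adjusted p = 0.884). HxD 1 was far above the others and KO 2 lay above HxD 2 and HxD 3, and without KO 2 edgeR called the gene, at a log2 fold change of 1.91, while without HxD 1 the value was 0.36. Rpl10l, a retrogene copy of Rpl10 used in the male germ line, measured 29.1, 11.98 and 7.37 CPM in HxD and 64.0, 29.0 and 52.2 CPM in KO. The lowest KO library lay just below the highest HxD library, and the log2 fold change of -1.58 had an edgeR adjusted p of 0.644. Rpl10l was called by DESeq2, and by edgeR without HxD 1.

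In the piRNA pathway, 25 genes were tested, 0 were called, and the median was 0.070 (-0.20 without HxD 1). Tdrd1, a Tudor domain protein of piRNA granules, measured 63.4, 46.3 and 40.9 CPM in HxD and 14.53, 21.4 and 44.1 CPM in KO. KO 3 lay above HxD 3, and the log2 fold change was 0.91 (edgeR adjusted p = 0.884), with an interval of 0.12 to 1.70. The WT mean of Tdrd1 was 113 CPM ± 70.9 (SD, n = 3). Against WT, edgeR called it in KO (-2.08, adjusted p = 0.0127) and not in HxD (-1.16, adjusted p = 0.415). Fkbp6 measured 195, 105 and 173 CPM in HxD and 162, 229 and 212 CPM in KO, with overlap. Of 35 meiotic genes, 0 were called and 13 had a positive fold change, with a median of -0.20. That median was -0.051 without KO 2, -0.061 without HxD 2 and -0.020 without HxD 3. Stag3, the meiotic cohesin subunit, measured 368, 180 and 273 CPM in HxD and 389, 358 and 312 CPM in KO, with HxD 2 the lowest. Rec114, a factor of meiotic break formation, measured 14.8, 17.5 and 40.6 CPM in HxD and 6.32, 21.0 and 9.39 CPM in KO, and the groups overlapped.

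The X-linked Rhox homeobox cluster, expressed in reproductive tissue, had 9 tested genes, 0 called and a median of -0.23 (0.075 without KO 1). Rhox5 measured 316, 362 and 410 CPM in HxD and 395, 314 and 375 CPM in KO, against a WT mean of 195 CPM ± 39.1 (SD, n = 3). The libraries of the mutants overlapped, with a log2 fold change of 0.0054 and an interval of -0.39 to 0.40. Rhox9 measured 129, 107 and 161 CPM in HxD and 217, 94.4 and 155 CPM in KO, with a log2 fold change of -0.23 that became 0.083 without KO 1. Members of this family are alike in sequence, and counts may be split between them.

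The other enzymes of DNA methylation and the partners of TET1 came next. Of 31 tested TET and DNA methylation enzymes, Tet1 was the gene called, 17 had a positive fold change and 17 were bounded within 2-fold. Trim28, the scaffold of KRAB zinc finger silencing, measured 2145, 1996 and 1780.4 CPM in HxD and 1909, 1857 and 1912 CPM in KO, with overlap, a log2 fold change of 0.061 and an interval of -0.22 to 0.34. Of 22 SIN3A, HDAC and OGT partners, 0 were called, 18 were bounded and fold changes ran from -0.43 to 0.44. Arid4a, a SIN3A complex member, measured 120, 81.5 and 51.1 CPM in HxD and 69.5, 67.8 and 49.6 CPM in KO, and Suds3, another, measured 172, 133 and 133 CPM in HxD and 176, 203 and 187 CPM in KO. Arid4a overlapped and Suds3 did not, and their log2 fold changes were 0.44 and -0.37. That of Arid4a was 0.091 without HxD 1 and 0.70 without HxD 3. Arid4a had a WT mean of 136 CPM. Against WT, edgeR called it in KO (-1.13, adjusted p = 0.0461) and not in HxD (-0.69, adjusted p = 0.465). Of 11 Polycomb repressive complex 2 genes, 0 were called and 10 were bounded, and Mtf2, a targeting subunit, had a log2 fold change of 0.25 with HxD above KO in every library. NuRD subunits had 11 of 14 bounded, and the PRC1.6 repressor, which silences germ cell genes in other cells, had 13 of 17. Beside these counts, 38.1% of all genes tested and 60.7% of those averaging at least 8 CPM were bounded.

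Genes that Polycomb keeps silent were weakly expressed, and few could be measured. Of 87 such developmental regulators, 50 passed the expression filter and 7 of those were bounded. None was called. An unadjusted p under 0.05 was found for 1 with more transcript in HxD and 1 with less, against 1.88% and 2.79% of all genes. Their median SE was 2.35 on the log2 scale, so 2-fold differences were not detectable for most. Eomes was at 0 in all KO libraries and at 0, 1.67 and 4.65 CPM in HxD.

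Housekeeping programs gave the tightest bounds. Intervals lay within 2-fold for all 51 cytosolic ribosomal protein genes, all 34 mitosis genes, 36 of 39 DNA replication genes and 41 of 42 nuclear genes of the respiratory chain. The share was 38.1% of all genes tested, but these genes are highly expressed. Among all genes above a mean of 90.4 CPM it was 98.6%, and between 32 and 90.4 CPM it was 75.5%. None of them was called, and medians were 0.034, 0.042, -0.015 and -0.049. Mcm2 and Mcm6, parts of the replicative helicase, had log2 fold changes of -0.059 and -0.015, and Mki67, the proliferation marker, one of 0.18 (interval -0.14 to 0.50). Hmmr and Ttk, both of the mitotic spindle, were the mitosis genes with an unadjusted p under 0.05, 2 of 34. Of all genes, 1.88% passed it with more transcript in HxD and 2.79% with less. Hmmr measured 113, 108 and 133 CPM in HxD and 106, 64.5 and 81.6 CPM in KO, and Ttk 165, 144 and 162 CPM in HxD and 122, 99.7 and 115 CPM in KO. HxD was above KO in every library for both, with a log2 fold change of 0.49 each and an edgeR adjusted p of 0.884.

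**Figure D5:**
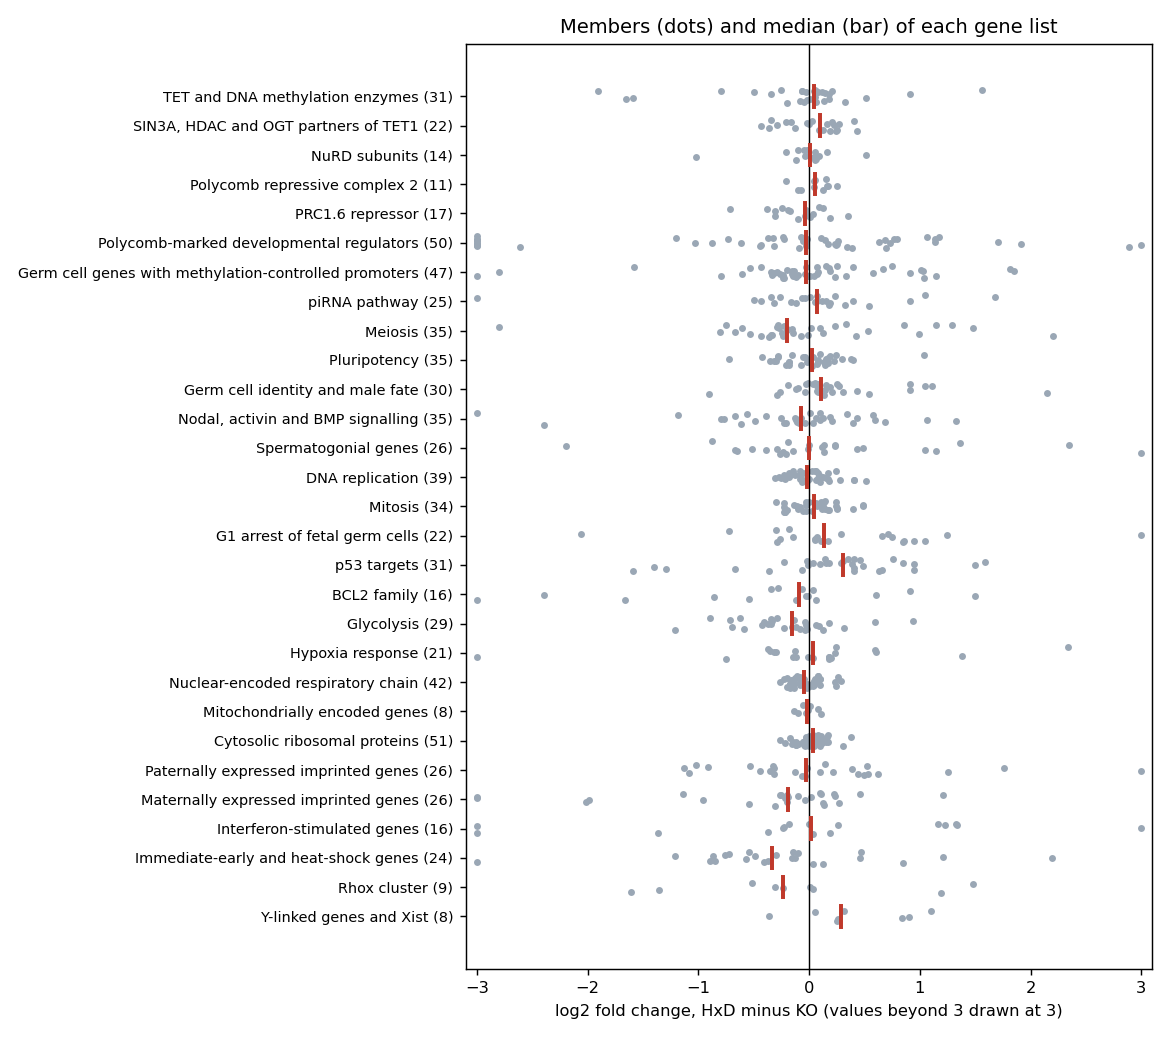
log2 fold change from KO to HxD (x axis, values beyond 3 drawn at 3) of each tested member (dots) of 29 gene lists, with the list's median as a red bar and the number of tested members in brackets. The medians run from -0.34 for immediate-early and heat-shock genes to 0.30 for p53 targets, and Tet1, at 1.56 in the first list, is the member called.

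Of the 29 lists, p53 targets had the highest median, 0.30, with 22 of 31 positive (71.0%, against 47.6% of all genes) and 0 called. With limma-voom the median was 0.17. HxD lay above KO in 6 of the 31 and below in 2, against 3.69% and 5.64% of all genes. An unadjusted p under 0.05 was found for 4 of the 31, all with more transcript in HxD. Of all genes, 1.88% passed it with more transcript in HxD and 2.79% with less. Ccng1, cyclin G1, measured 73.3, 127 and 66.4 CPM in HxD and 39.8, 61.4 and 36.7 CPM in KO. Bbc3, the cell death gene PUMA, measured 22.6, 24.9 and 16.8 CPM in HxD and 7.38, 8.27 and 7.18 CPM in KO. Both stood apart without overlap, at 0.95 (SE 0.28) for Ccng1 and 1.49 (SE 0.59) for Bbc3 on the log2 scale, and each had an edgeR adjusted p of 0.884. Bbc3 had a WT mean of 10.5 CPM ± 4.85 (SD, n = 3) and a V mean of 23.3 CPM. Bax, another cell death gene of the pathway, measured 275, 186 and 269 CPM in HxD and 216, 248 and 247 CPM in KO, and was bounded within 2-fold.

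For glycolysis, 7 of 29 genes were positive (24.1%), the median was -0.16 (-0.31 without HxD 3) and 0 were called. Pfkp, a phosphofructokinase, measured 31.3, 59.1 and 42.1 CPM in HxD and 131, 50.7 and 64.9 CPM in KO. KO 1 was the high library and the groups overlapped, with a log2 fold change of -0.89 (edgeR adjusted p = 0.884). Pdk1, which keeps pyruvate out of mitochondria, measured 144, 185 and 99.7 CPM in HxD and 76.1, 114 and 94.9 CPM in KO, with a log2 fold change of 0.59. Pkm, pyruvate kinase, had a log2 fold change of -0.079 with an interval of -0.38 to 0.22. Immediate-early and heat-shock genes, which can respond to cell handling, had a median of -0.34 over 24 genes with 0 called, and of -0.22 with the filter at 8 CPM. Ier5 measured 32.8, 24.7 and 14.9 CPM in HxD and 35.1, 60.2 and 39.4 CPM in KO, without overlap, while Hspa8 had a log2 fold change of -0.10 (interval -0.37 to 0.17).

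Signals that steer male germ cells were measured as well. Of 35 Nodal, activin and BMP genes, 0 were called, 1 had an unadjusted p under 0.05 with more transcript in HxD and 4 with less, against 1.88% and 2.79% of all genes. Of the 35, 6 lay below KO in every HxD library, against 5.64% of all genes. Among receptors, Acvr1b has been given above. Among inhibitors of the pathway, Smad7 measured 70.9, 69.7 and 68.1 CPM in HxD and 99.0, 130 and 103 CPM in KO, and Skil measured 341, 318 and 303 CPM in HxD and 265, 231 and 235 CPM in KO. Each was without overlap, Smad7 at a log2 fold change of -0.67 and Skil at 0.40, and Ski, a close relative of Skil, was at 0.011. Itga6, an integrin of spermatogonia, measured 53.2, 45.7 and 41.7 CPM in HxD and 8.26, 31.2 and 15.3 CPM in KO, with a log2 fold change of 1.36 (edgeR adjusted p = 0.884). In the pluripotency list 25 of 35 genes were bounded and 0 called, and Klf2 measured 34.2, 87.3 and 59.1 CPM in HxD and 22.8, 42.7 and 22.5 CPM in KO, with overlap.

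Imprinted genes, whose parental alleles differ in methylation, were mostly too variable to bound. Of 26 tested paternally expressed genes 0 were called and 2 were bounded, with a median of -0.029 (0.36 without KO 1), and of 26 maternally expressed genes 0 were called and 11 were bounded, with a median of -0.19. The latter was 0 without KO 2, -0.072 without HxD 2 and -0.027 without HxD 3. Maternally expressed genes lay below KO in every HxD library in 5 cases, against 5.64% of all genes. Peg3, a paternally expressed zinc finger gene, measured 406, 547 and 382 CPM in HxD and 382, 195 and 293 CPM in KO, and HxD 3 and KO 1 were level. Asb4, maternally expressed, measured 26.2, 7.19 and 15.2 CPM in HxD and 30.7, 35.6 and 40.9 CPM in KO, without overlap (log2 fold change -1.14, edgeR adjusted p = 0.884). Igf2r, the maternally expressed receptor of IGF2, had a log2 fold change of -0.20 with an interval of -0.56 to 0.16.

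Finally, genes ranked by V against WT were followed between the mutants. That fold change uses neither HxD nor KO, but its p-values rest on the spread and the filter shared by all 12 libraries. Ranking by p therefore favours genes of small shared spread, so the counts of bounded members partly reflect the ranking. Of the 100 with the smallest p that were higher in V, 50 were positive from KO to HxD, the median was -0.0026 and 72 were bounded within 2-fold. Of the 100 that were lower in V, 61 were positive, the median was 0.077 and 85 were bounded. Among all genes tested, 47.6% were positive and 38.1% were bounded, and 60.7% were bounded among those averaging at least 8 CPM. In neither set was a gene called between HxD and KO.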

How the data were processed

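RNA sequencing counts of E14.5 male primordial germ cells were used. The authors deposited raw read counts per gene symbol, with no normalization, in 1 table of 35976 symbols. Per the submitters' processing notes, featureCounts 2.0.3, STAR 2.7.10b, SAMtools 1.9, Trim Galore 0.6.7 and FastQC were used, and GRCm39 and mm10 appear as builds whose role is unstated. Annotation, strand setting and treatment of multi-mapped reads: not given in the sources used here. 1 column of values names no sample and was not used, and WT replicate 4 was not analysed here, so 12 libraries entered, 3 per genotype.

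Counts were filtered with edgeR's default (14702 genes left), scaled by TMM and fitted with edgeR 4.0.16 in R 4.3.3 (quasi-likelihood test, two-sided, genotype as the term, all 12 libraries, Benjamini-Hochberg adjustment over all genes, threshold 0.05). Fitting all libraries shares 1 estimate of spread. Intervals are 95% intervals of the log2 fold change. CPM are TMM-scaled. A gene was called bounded when its interval lay within 2-fold. No pair of libraries held identical counts.

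Named genes followed a rule that left out predicted models. It took Tet1, and those ranked first by p for either sign at 8 CPM or more. It also took genes called against WT in both mutants, and the 8 of smallest p called in KO against WT. From each list it took the members with the smallest p and the tightest interval. The members and the 29 lists were chosen with earlier results of these data known. Alternatives were RLE scaling, DESeq2 1.42.0, robust dispersions, limma-voom (limma 3.58.1), no filter, a filter at 8 CPM, the 6 libraries alone, a replicate block, 1 surrogate variable (sva 3.50.0) and leaving out each library. The main edgeR fit was run on simulated data, and limma-voom only for calls among genes simulated without change. The other alternatives were not simulated. Gene positions are from GENCODE on GRCm38 and promoter sequences from RefSeq GRCm38.p6.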

Additional observations from a re-analysis of the deposited data

How the results depend on the processing

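Tet1 was called in all 21 alternative fits, 12 of which left out 1 library each, and was the only call in 12 of the 21. The share of genes with an unadjusted p under 0.05 ran from 3.29% to 7.39%. The number of called genes was 87 with DESeq2, 8 without the filter and 1 to 14 when leaving out 1 library, the 14 being without HxD 1. Replicate numbers did not pair the samples: same-numbered HxD and KO libraries had deviations from their genotype means correlated at -0.088 to 0.022, and 1 of 6 libraries correlated best with its own number. With the replicate number as a block, edgeR called 8 genes, Tet1, the 6 genes described beside it and Ckap4, which was singled out after its values were seen. Genes bounded within 1.5-fold numbered 2287, and those within 2-fold 4909 to 5806 when leaving out 1 library.

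List medians (log2) are small and several moved. With limma-voom they were -0.020 for TET and DNA methylation enzymes, -0.37 for Polycomb-marked regulators, 0.14 for spermatogonial genes, 0.17 for p53 targets and -0.095 for the hypoxia response. With the filter at 8 CPM they were -0.0076 for NuRD and -0.22 for immediate-early genes. With 1 surrogate variable they were -0.0097 for NuRD, 0.16 for spermatogonial genes, -0.21 for immediate-early genes and 0.021 for the Rhox cluster. Genes higher in V had 0.091 with DESeq2. Leaving out 1 library gave -0.073 to 0.025 for genes higher in V, -0.21 to 0.035 for Germ cell genes with methylation-controlled promoters, -0.31 to -0.10 for Glycolysis, -0.084 to 0.078 for Hypoxia response, -0.38 to -0.16 for Immediate-early and heat-shock genes, -0.00047 to 0.13 for Mitosis, -0.21 to 0.030 for Nodal, activin and BMP signalling, -0.061 to 0.070 for NuRD subunits, 0.25 to 0.41 for p53 targets, -0.080 to 0.36 for Paternally expressed imprinted genes, -0.20 to 0.15 for piRNA pathway, 0.012 to 0.11 for Polycomb repressive complex 2, -0.18 to 0.0015 for PRC1.6 repressor, -0.23 to 0.075 for Rhox cluster, 0.025 to 0.12 for SIN3A, HDAC and OGT partners of TET1, -0.016 to 0.17 for Spermatogonial genes, -0.042 to 0.066 for TET and DNA methylation enzymes and 0.038 to 0.67 for Y-linked genes and Xist. Signs of single genes turned without KO 1 for Rhox9 (range over left-out libraries -0.49 to 0.083), without KO 2 or HxD 3 for Dazl (-0.24 to 0.10) and Pmaip1 (-0.19 to 0.092), without KO 2 or HxD 1 for ND5 (-0.33 to 0.027), without HxD 2 for Mkx (-0.050 to 0.28) and without HxD 3 for ND6 (-0.027 to 0.21). Other single genes moved by over 1.5 times without turning, among them Tdrd1 (0.62 to 1.48), Ccng1 (0.60 to 1.22), Pfkp (-1.16 to -0.39), Pdk1 (0.36 to 0.80), Ltn1 (0.49 to 0.99) and Mtf2 (0.16 to 0.31), and the median of genes lower in V was -0.0076 to 0.23. The cause of these shifts was not tested. With 3 libraries a group and a large spread, most weakly expressed genes could not be bounded.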
